A study of Mus musculus with 12 samples.

Results

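The Chn2 locus was taken as all open regions (peaks) that overlapped chromosome 6 from 53940000 to 54300000 on mm9, which is Chn2 with its flanks. The locus was chosen by the number of regions that the Sox9 High list alone held in a 100 kb window within it, so counts of High peaks are given as a description, with no test. The locus held 107 peaks, of 210325 in all: 25 of 45461 peaks of the Sox9 Negative list, 19 of 52113 of Sox9 Sublow, 27 of 58356 of Sox9 Low and 36 of 54395 of Sox9 High. Merged where they overlapped or touched, these peaks made 51 regions, of 82365 in the genome.

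Chromatin accessibility was measured by Omni-ATAC-seq, in which Tn5 transposase inserts adapters into open DNA, in intestinal epithelial cells of C57Bl/6 mice that carry a Sox9EGFP reporter. The 4 populations, Sox9 Negative, Sox9 Sublow, Sox9 Low and Sox9 High, differ by the reporter level at which cells were sorted, with 3 libraries each. The label of every library names 12000 cells collected per population, and whether that number is for each library is not said. All of them carry the reporter, and the labels used here give neither its construct, nor age or sex, nor whether libraries came from separate animals. Each population is given as 1 consensus list of peak positions with no height, read count or value per library, so depth is unknown, no value below has a replicate error, and no comparison could be tested.

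Chn2 encodes beta-chimaerin, a GTPase-activating protein that switches off the small GTPase Rac and is recruited to membranes by diacylglycerol. Open regions outside promoters are often enhancers or other control elements, which differ between cell types more than promoters do. Earlier studies of Sox9EGFP mice placed differentiated cells mainly in the Negative gate, dividing progenitors in Sublow, stem cells of the crypt base in Low, and enteroendocrine with other secretory cells in High. The RefSeq gene table of GRCm38.p6 places Cpvl, a serine carboxypeptidase gene, before Chn2 and Prr15, the gene of a proline-rich protein, after it as the nearest protein-coding genes. Chn2 is overlapped there by 3 lncRNA genes (9530036M11Rik, Gm15527 and 9130019P16Rik) and 1 pseudogene.

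RefSeq lists 4 starts of Chn2 on the plus strand of chromosome 6 in GRCm38.p6, numbered here in their order along the gene. The sequences around the first and the third, each 250 bases before to 50 after the start, are shown since they hold the most and the fewest CG pairs of the 4. They are written 5′ to 3′, with CG pairs in capitals.
Chn2 start 1: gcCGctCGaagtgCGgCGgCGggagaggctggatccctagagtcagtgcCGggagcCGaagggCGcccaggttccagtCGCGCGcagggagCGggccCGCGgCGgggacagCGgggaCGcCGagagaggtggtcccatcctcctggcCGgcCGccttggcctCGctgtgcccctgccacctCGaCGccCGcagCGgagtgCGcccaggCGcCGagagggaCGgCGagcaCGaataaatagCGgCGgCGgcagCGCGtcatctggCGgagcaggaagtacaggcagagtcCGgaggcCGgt
Chn2 start 3: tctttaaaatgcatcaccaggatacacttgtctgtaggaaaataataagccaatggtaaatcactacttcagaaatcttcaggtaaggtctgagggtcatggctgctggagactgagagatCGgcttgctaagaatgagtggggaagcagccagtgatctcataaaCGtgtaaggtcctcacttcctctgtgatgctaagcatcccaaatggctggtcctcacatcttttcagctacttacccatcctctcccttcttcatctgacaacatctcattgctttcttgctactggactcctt
The first start held 39 CG pairs and 73.3% G or C, against a median of 7 CG pairs and 52.7% G or C over 32851 RefSeq promoters of that length, and 95.6% of them held fewer CG pairs. The second start held 7 CG pairs, the third 2 and the fourth 4. CG-rich promoters are, as background, commonly open in many cell types. The letters ACAAT, the core that Sox proteins read, were searched on both strands and found once, in the fourth start, and 31% of the promoters held them. The E-boxes CAGATG and CAGCTG, and CTTTGAT, which Tcf proteins read, were also searched on both strands, and no letters of 1 motif hold another. CTTTGAT was found in 0 of the 4 starts (3.73% of promoters). CAGATG was found once in the first and once in the third start (17.2% of promoters), and CAGCTG in 2 places in the second and 1 in the fourth (16.3%). GRCm38.p6 positions were not set beside mm9 positions, so which peaks lie on these starts, or on exons and introns, was not analysed here.

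With all peaks, the High list was the densest in the locus, which was chosen for regions of High alone, so nothing is read from this lead. It held 10 peaks per 100 kb, against 6.94 in Negative, 5.28 in Sublow and 7.5 in Low. By bases the lists were closer together. Negative covered 9168 bases, Sublow 10666, Low 13339 and High 13480. High thus had 9 more peaks than Low and covered 141 more bases. The lead in peaks was smaller with narrow peaks left out. With peaks of at least 200 bp, High held 26, Low 23, Negative 21 and Sublow 19. With each list held to its 45461 widest peaks, High held 26, Negative 25, Low 22 and Sublow 19. High peaks in the locus were narrow, with a median of 312.5 bp, against 383 bp over the whole High list. Negative peaks were narrower still, with a median of 274 bp in the locus and 394 bp over the whole list. Sublow peaks had a median of 475 bp in the locus and 464 bp over the list, and Low peaks 394 bp and 433 bp.

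**Figure D1:**
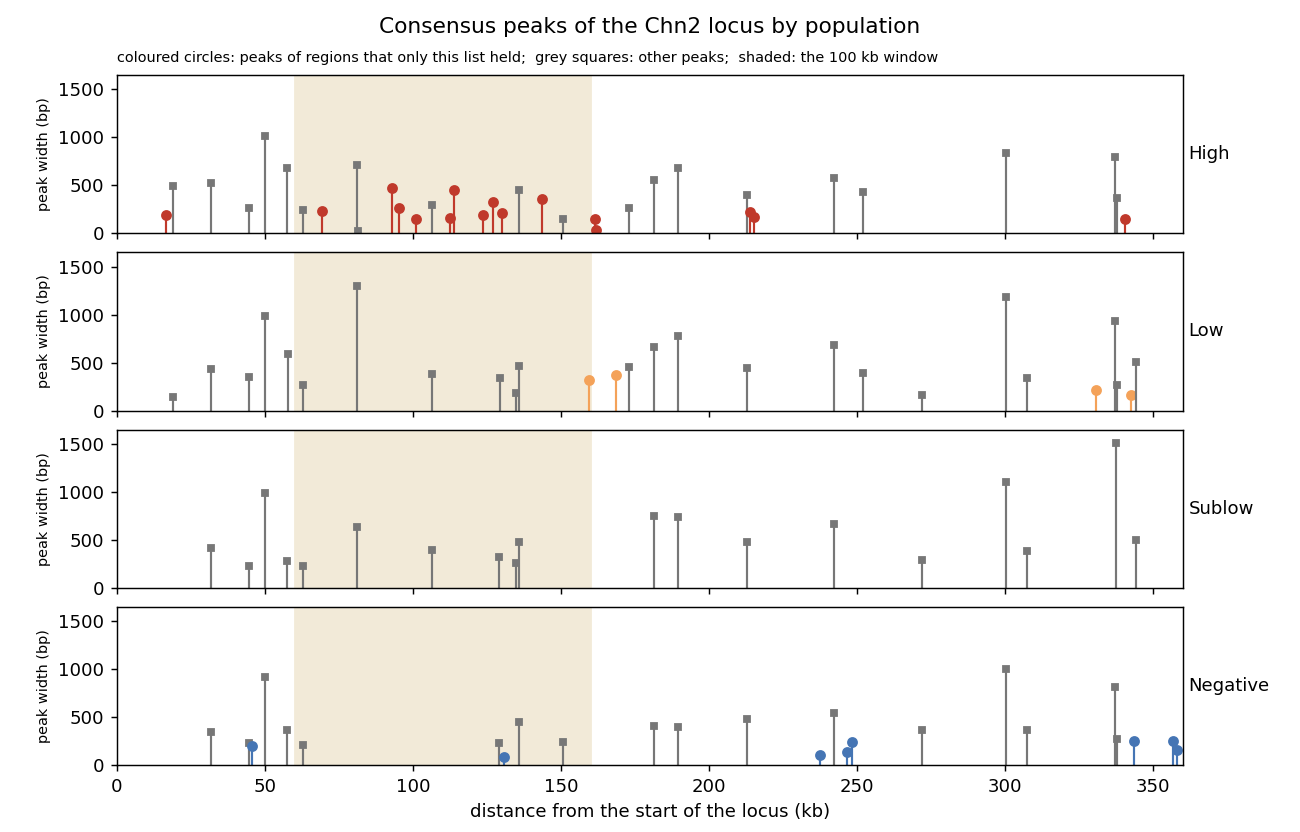
Each stem is 1 consensus peak, at its distance in kb from the start of the Chn2 locus, and its height is the peak's width in bp, with 1 panel per population. Coloured circles mark peaks of regions that no other list held (Negative had 8, Sublow 0, Low 4 and High 16), which sit mostly in and just after the shaded 100 kb window in High and mostly toward the far end in Negative.

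The widest peak differed by list. In Negative it was 1001 bp wide, from 54239707 to 54240707, and in Low the peak in that place was 1185 bp and in High 834 bp. The widest Sublow peak was 1510 bp, from 54276457 to 54277966, where each of the other lists had a pair of peaks in place of it. The pair measured 819 and 274 bp in Negative, 932 and 266 bp in Low, and 798 and 366 bp in High. The widest Low peak was 1294 bp, from 54020269 to 54021562, in a region that Negative did not hold. The widest High peak was 1009 bp, from 53989412 to 53990420, and this place was open at nearly the same width in all 4 lists.

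Of the 51 regions, 16 were held by High alone (31.4%, exact 95% interval 19.1 to 45.9%). Over the whole genome 16.6% of merged regions were held by High alone, and since these regions chose the locus, nothing is read from the difference. Such an interval covers no more than counting error and takes neighbouring regions as independent. The regions of High alone also count among the 51, so the choice of the locus lowers the share of every other combination. Of the 34 regions that High held, 47.1% were its own, against 25.5% over the whole genome. They made up 3720 bases, or 27.6% of the bases of High peaks in the locus, against 14.8% over the whole High list.

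The 16 regions were narrow. Their median width was 201.5 bp, with a range from 30 to 471 bp, against a median of 245 bp for all 13694 regions of High alone in the genome. Of the 16, 8 reached 200 bp, as 66% of regions of High alone did over the genome, and 0 reached 500 bp. The widest was 471 bp, from 54032477 to 54032947, and the next 451 bp, from 54053728 to 54054178. Regions of 358 bp from 54083378 to 54083735 and of 326 bp from 54066742 to 54067067 followed. These 4 widest regions all lay in the 100 kb window.

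The other members in that window were between 144 and 264 bp wide. They ran from 54009025 to 54009255 (231 bp), from 54034945 to 54035208 (264 bp), from 54041039 to 54041182 (144 bp) and from 54052340 to 54052497 (158 bp). A region of 190 bp followed from 54063461 to 54063650, and 1 of 213 bp from 54069947 to 54070159. With them the window held 10 of the 16. The remaining 6 lay outside it. A region of 190 bp from 53956608 to 53956797 was the only one before the window.

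After the window lay 5 regions of High alone, the widest at 224 bp. The first pair ran from 54101404 to 54101549 (146 bp) and from 54101810 to 54101839 (30 bp), only 260 bases apart and just past the window's end. The second pair ran from 54153694 to 54153917 (224 bp) and from 54155119 to 54155291 (173 bp). The last was at 54280309 to 54280459 (151 bp). After the second pair, 125017 bases passed without a region of High alone.

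Regions of High alone stood singly or in runs between regions of other lists. Along the locus they formed 9 runs, of which 5 were of a lone region. The longest run was 4 regions over 14728 bases, from 54052340 to 54067067, and the next was 3 regions over 8706 bases, from 54032477 to 54041182. Each lay in the 100 kb window that was chosen for its regions of High alone, so nothing is read from these runs. For the 16 regions of High alone, the distance to the nearest region of any other list had a median of 3636.5 bp (range 322 to 11011 bp). The median for all regions of High alone over the genome was 8531.5 bp. For 2 of the 16 this distance was at most 1000 bp, as it was for 9.95% over the genome.

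Each list had its longest gap in another place. The longest gap between Negative peaks in the locus was 66079 bases, from 54002969 to 54069047. In it lay 11 High peaks, 8 of them in regions of High alone. This gap lies wholly in the window chosen for its regions of High alone, which hold no Negative peak by definition. Nothing is read from its High peaks. The longest Sublow gap was 45002 bases, from 54076075 to 54121076, with 5 High peaks inside it. In Low the longest gap was 28914 bases, from 54152913 to 54181826, with 2 High peaks. The longest gap of High itself came later, with 47622 bases from 54192312 to 54239933, and Negative, Sublow and Low each held 1 peak there.

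**Figure D2:**
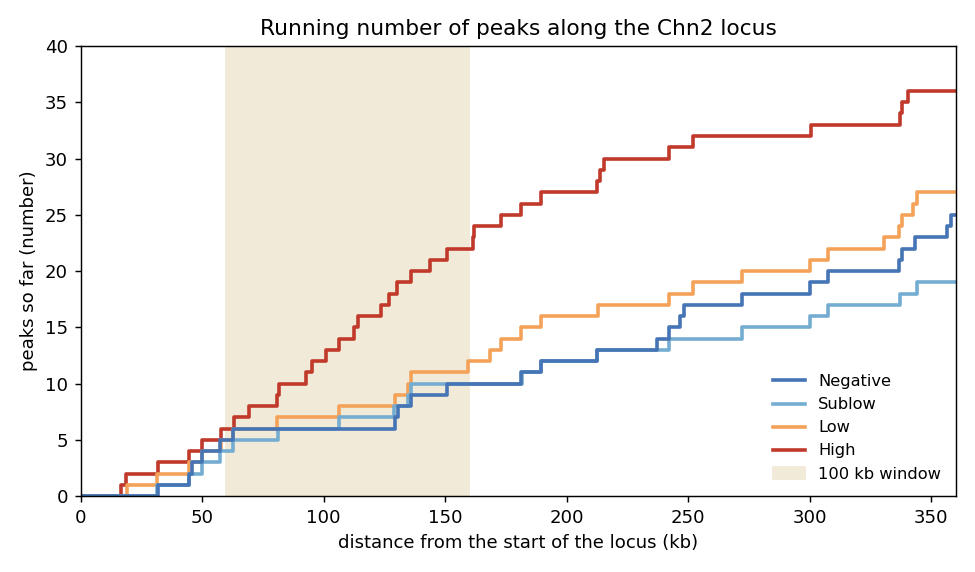
Each line counts the peaks of 1 list from the start of the Chn2 locus onward, by distance in kb. The High line climbs by 16 peaks through the shaded 100 kb window, where Negative gains 5, Sublow 6 and Low 7, and over the last 100 kb it climbs the least, by 4. The window was chosen for its regions of High alone.

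The makeup changed along the locus. In the first 60 kb Negative held 5 peaks, Sublow 4, Low 5 and High 6, and 4 of the 7 regions were held by all lists. In the 100 kb from 54000001 to 54100000 there were 19 regions, 10 of High alone and 2 of all lists. The locus was chosen by the regions of High alone in this stretch. From 54100001 to 54200000 there were 14, with 4 of High alone and 4 of all lists. From 54200001 to 54300000 there were 11 regions, 1 of High alone, and 8 that High did not hold. In this last stretch Negative held 8 peaks, Sublow 5, Low 8 and High 4, the fewest.

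Set out by the middle of the locus, 69.4% of High peaks lay in the first 180 kb, against 40% of Negative, 52.6% of Sublow and 51.9% of Low peaks. Of the 16 regions of High alone, 13 lay in the first 180 kb and 3 in the second. The 100 kb window that chose the locus lies wholly in the first 180 kb, so nothing is read from these splits of High. Of the 17 regions without High, 6 lay in the first 180 kb and 11 in the second. The 12 regions of all lists were spread evenly, with 6 in each.

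A total of 17 regions were not held by High, 33.3% of the locus, against 34.9% over the genome. The regions of the locus include the 16 of High alone that chose it, which lower this share, so nothing is read from the comparison. The widths of the 17 regions ran from 91 to 525 bp, with a median of 250 bp. Of these, 12 were held by a lone list. Over the genome, 28738 regions were not held by High, of which Negative alone held 5620, Low alone 5283 and Sublow alone 1696. These counts were not tested against those of the locus.

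Negative alone held 8 regions, 15.7% of the locus (exact 95% interval 7.02 to 28.6%), against 6.82% over the genome. The lists give no replicate to test that difference. These regions were 91 to 253 bp wide, and 6 of them lay in the second 180 kb. There they ran from 54177199 to 54177307 (109 bp), from 54186516 to 54186657 (142 bp), from 54188126 to 54188370 (245 bp), from 54283229 to 54283478 (250 bp), from 54296331 to 54296583 (253 bp) and from 54298005 to 54298168 (164 bp). The other two were at 53985631 to 53985836 (206 bp) and 54070482 to 54070572 (91 bp). The last of these lay 322 bases past the end of a region of High alone, so the lists of the lowest and the highest reporter level each had a region of their own close together.

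Low alone held 4 regions, 7.84% of the locus against 6.41% over the genome. They ran from 54099256 to 54099573 (318 bp), from 54108236 to 54108603 (368 bp), from 54270358 to 54270577 (220 bp) and from 54282358 to 54282522 (165 bp). Sublow alone held 0 of the 51, which by the exact interval allows a share of up to 6.98%, against 2.06% over the genome. Every one of the 19 Sublow peaks overlapped a Low peak, and 16 of the 25 Negative peaks did. The shares of peaks overlapping Low were not analysed over the genome, so nothing is read from these overlaps. By another measure, over the genome, Sublow alone held 3.28% of the regions of its list and Negative alone 12.7% of those of its list.

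Negative, Sublow and Low shared 3 regions that High did not hold, 5.88% of the locus against 8.92% over the genome. In the region from 54068955 to 54069360 the Negative peak was 234 bp wide, the Sublow peak 324 bp and the Low peak 336 bp. From 54211774 to 54212144 they were 371, 290 and 164 bp, and from 54247171 to 54247610 they were 371, 391 and 339 bp, in the same order. The widest of the 3 peaks was therefore Low in the first, Negative in the second and Sublow in the third. Sublow and Low alone shared another pair of regions, from 54074547 to 54074802 and from 54283789 to 54284313. The first had a Sublow peak of 256 bp and a Low peak of 189 bp, and the second a Sublow peak of 503 bp and a Low peak of 509 bp.

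High shared regions with its neighbour in reporter level at several places. Low and High alone held 3 regions, 5.88% of the locus against 5.98% over the genome. At 53958573 to 53959068 the peak was 496 bp in High and 145 bp in Low. At 54112601 to 54113069 it was 265 bp in High and 453 bp in Low, and at 54191882 to 54192311 it was 427 bp in High and 394 bp in Low. Neither list was the wider in all 3.

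Sublow, Low and High held 2 regions without Negative, 3.92% of the locus against 7.49% over the genome, and each lay in the 100 kb window. In the region from 54020269 to 54021562, Sublow had a peak of 633 bp, Low a peak of 1294 bp, and High a peak of 716 bp with a second of 23 bp beside it. In the region from 54046220 to 54046621 the Sublow peak was 394 bp wide, the Low peak 381 bp and the High peak 299 bp. Low was the widest in the first and Sublow in the second.

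Of the 11 regions held by 2 or 3 lists, 10 (90.9%, exact 95% interval 58.7 to 99.8%) were held by populations next to each other in reporter level, against 93.7% over the genome. The exception was held by Negative, with a peak of 248 bp, and High, with a peak of 150 bp, from 54090555 to 54090802.

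**Figure D3:**
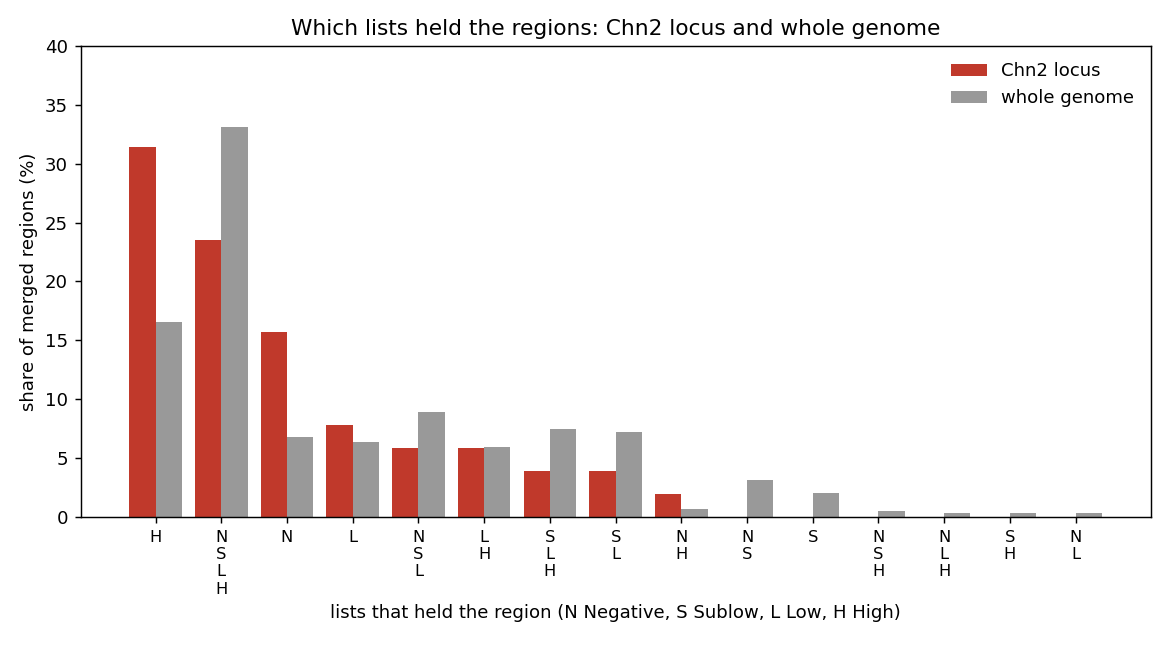
Bars give the share of merged regions, in percent, held by each combination of lists, in the Chn2 locus (51 regions, left bar) and over the whole genome (82365 regions, right bar). High alone stood at 31.4% in the locus and 16.6% over the genome, and all 4 lists at 23.5% and 33.1%. The regions of High alone chose the locus and lower its other shares.

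All 4 lists held 12 regions of the locus, 23.5% (exact 95% interval 12.8 to 37.5%), against 33.1% over the genome. The regions of High alone that chose the locus lower its share, so nothing is read from the difference. The median width of the 12 regions was 680.5 bp, against 743 bp over the genome, and 9 of the 12 reached 500 bp. The widest covered 1545 bp from 54276457 to 54278001, the next 1185 bp from 54239632 to 54240816 and the third 1009 bp from 53989412 to 53990420. Only 2 of the 12 lay in the 100 kb window, from 54002710 to 54003037 and from 54075600 to 54076104. In the second of these the 4 peaks were nearly alike, the Negative one at 457 bp, the Sublow one at 475 bp, the Low one at 467 bp and the High one at 452 bp.

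In 11 of the 12 each list had 1 peak, so widths could be set side by side. Negative peaks had a median width of 416 bp there (529 bp over 25643 such regions of the genome), Sublow peaks of 483 bp (658 bp), Low peaks of 595 bp (643 bp) and High peaks of 554 bp (565 bp). Low was the widest of the 4 in 5 regions, Sublow in 3 and High in 3. Negative was the narrowest in 6 and the widest in 0. The midpoints of the 4 peaks of a region lay within 18 to 155.5 bp of each other (median 63 bp).

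The list with the widest peak differed between regions. In the region from 53971363 to 53971910 the Negative peak was 353 bp wide, the Sublow peak 414 bp, the Low peak 433 bp and the High peak 524 bp. In that from 53997230 to 53997907 the Negative peak was 366 bp, the Sublow peak 280 bp, the Low peak 595 bp and the High peak 678 bp. High was thus the widest in these, and also at 53989412, all within the first 60 kb, where Low was the widest at 53984561 (354 bp). In the region from 54239632 to 54240816 the Negative peak was 1001 bp, the Sublow peak 1101 bp, the Low peak 1185 bp and the High peak 834 bp, the narrowest. High was also the narrowest at 54075600 (452 bp) and at 54152430 (399 bp), while Low was the widest at 54002710 (272 bp). From 54121059 to 54121830 the Negative peak was 416 bp, the Sublow peak 754 bp, the Low peak 667 bp and the High peak 554 bp, and from 54129008 to 54129786 the widths were 402, 738, 774 and 683 bp in that order. In the last pair Negative was the narrowest, and Sublow and Low were wider than High.

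**Figure D4:**
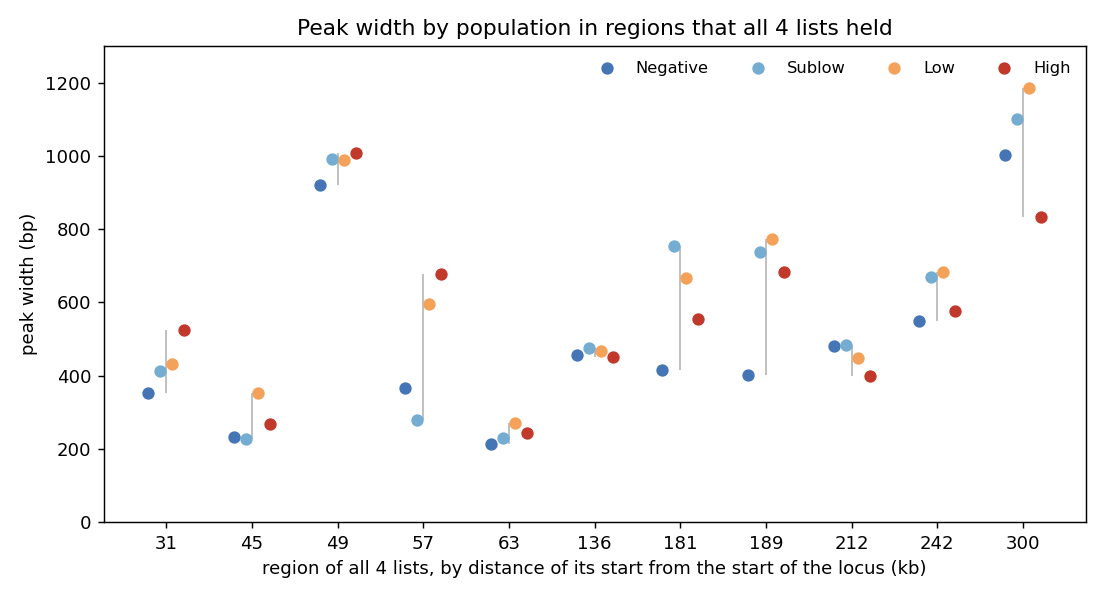
Points give the peak width in bp of each list in the 11 regions of the Chn2 locus in which all 4 lists had 1 peak, placed by distance of the region from the start of the locus, and the grey line spans the 4 values. High is the widest in 3 regions (524, 1009 and 678 bp), among the first 5 where Low is the widest in the other two (354 and 272 bp), and the narrowest in 3 later ones (452, 399 and 834 bp).

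By shared bases, High was nearest to Low, its neighbour in reporter level, and farthest from Negative. The Jaccard index, the bases that both lists covered divided by those that either covered, was 0.485 for High and Low, 0.446 for High and Sublow and 0.366 for High and Negative. It was 0.687 for Low and Sublow, 0.568 for Sublow and Negative and 0.457 for Low and Negative. Every pair was lower in the locus than over the genome, where the indices were 0.541, 0.504, 0.441, 0.743, 0.612 and 0.522 in the same order of pairs. The pairs with High count the bases of High alone, whose regions chose the locus, so nothing is read from their lower values. The 6 pairs ranked in the same order in the locus as over the genome, with Low and Sublow first.

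The locus was dense in regions as a whole. Among 5505 tiles of 360 kb, laid so that the locus was 1 of them, 40 held more regions than its 51, and the median tile held 12. For regions of High alone, by which the locus was chosen, 3 tiles held more than 16 and 2 others held as many. For regions of Negative alone, which that choice did not use directly, 7 tiles held more than 8 and 16 others held as many. Whether the choice of a locus dense in regions raised the rank of Negative alone was not tested. For regions of all 4 lists 564 tiles held more than 12. The ranks describe these lists, were not adjusted for the number of regions in a tile, and are not a test.

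The 100 kb window was level with the highest count of regions of High alone on its grid. The locus was chosen by this count, so its rank restates the choice and nothing is read from it. No window held more than 10 regions of High alone. This window and another held 10 (2 in all), while 2 held 9 and 4 held 8, and the median over the 8305 windows with any was 1. The window just before it, from 53900001 to 54000000, held 1 of 14 regions, and that just after it 4 of 14. The peaks nearest to the limits of the locus were High peaks of 190 bp at 53956608, inside, and of 426 bp at 53937266, outside, at the near end. At the far end the last peak inside was the Negative peak of 164 bp at 54298005, and the first outside were Sublow and Low peaks of 815 and 820 bp at 54303162.

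The number of regions of High alone depended on narrow peaks. With peaks of at least 200 bp, 9 of 38 regions of the locus were of High alone (23.7%, against 15.3% over the genome). With each list held to its 45461 widest peaks, the length of the shortest list, 9 of 41 were (22%, against 16.5%), and Negative alone then held 9 as well. The Negative list loses no peak in that setting, being the shortest, while Sublow keeps peaks down to 207 bp, Low to 248 bp and High to 193 bp. With peaks of at least 200 bp in every list, Negative alone held 5 regions, against 8 with all peaks, and it held 4 with the limits of the locus drawn in by 50 kb. The lists give no read depth, and the part that library depth had in these counts was not tested.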

How the data were processed

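Omni-ATAC-seq libraries of 4 sorted populations (12 libraries, 3 each) were analysed through the consensus peak list of each population, as the authors deposited it. A list gives a chromosome, start, end and name per peak, and no other unit, so depth and precision are unknown. Per the submitters' processing notes, the build was mm9 and the tools were MACS2 2.1.2, deepTools 2.5.2, Picard 2.10.3, Bowtie2 2.3.4 and Trim Galore 0.4.3. How libraries were combined, and any correction for the offset of Tn5 cuts, is not given in sources used here. Wider or more numerous peaks can follow from deeper libraries.

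Positions were counted from 1 with the end included, since every list held peaks whose start equalled the end. Overlapping (by 1 bp or more) or touching peaks were merged across lists with Python 3.11.15, and a region was called held by a list with a peak in it. A region not held had no listed peak, whatever its accessibility. Exact (Clopper-Pearson) 95% intervals came from scipy 1.17.1, and figures from matplotlib 3.10.9. The merging was tested on simulated data. No mm9 genome or annotation was used. Sequences are from RefSeq (GRCm38.p6), where Chn2 matched by symbol.

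The locus, its members and the settings were chosen with earlier results of these data known. Described in full were the regions of High alone, the 3 widest regions of all 4 lists, the widest peak of each list and the regions without High. Shared regions beyond these were chosen after their values were seen.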

Additional observations from a re-analysis of the deposited data

How the results depend on the processing

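No paired analysis was possible because the 3 libraries of a population enter only through its 1 consensus list, which also kept replicates from being left out. Shares were held to their exact intervals, and counts, bases and widths to a 1.5-fold range. Of 58 values under 6 alternatives, 53 stayed within these limits and 5 did not. Some could not change, since no Sublow peak of the locus is under 200 bp and the 45461 widest peaks include every Negative peak. The tally is therefore no measure of how firm the results are. High peaks of the locus fell from 36 to 26 with peaks of at least 200 bp, which counts as within the limits. Regions of High alone numbered 9 with peaks of at least 200 bp and 9 with the 45461 widest peaks of each list. By construction the first removes narrow peaks from every list and the second from Sublow, Low and High only, since Negative has no more than 45461. In these settings 100% of the regions of 2 or 3 lists (8 of 8 in each) were held by neighbours in reporter level. Any set held by neighbours throughout exceeds the upper limit of 99.8%, so this move says little. Limits moved out by 50 kb gave 30 Sublow peaks over a longer stretch. Regions of High alone numbered 18 with a reciprocal overlap of 50%, 14 with peaks up to 500 bp apart merged, 14 with limits drawn in by 50 kb and 16 with limits moved out. Without depth, a region absent from a list may have been closed or below the calling limit.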
